A study of Mus musculus with 27 samples.

Results

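Well-positioned nucleosomes of MEFs (mouse embryonic fibroblasts) are described here as places where both H3 libraries of these cells held a sharp nucleosome call at nearly the same base. A call is a 147-bp stretch that the authors assigned to 1 nucleosome, its dyad is the middle base, its read count is the number of reads assigned to it, and its fuzziness is the SD in bp of the read positions around the dyad. A call of MEF replicate 1 was taken when it had at least 10 reads and a fuzziness from 10 to 25 bp, and when a call of MEF replicate 2 within the same limits had its dyad at most 15 bp away. This gave 4923 nucleosomes of 9954332 MEF replicate 1 calls on chromosomes 1 to 19, X and Y, or 0.232% of the 2123090 calls of at least 10 reads. They were selected on H3 read count, fuzziness and dyad distance in MEFs, so their MEF positions, read counts and fuzziness are given as a description without a test.

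MEFs came from embryos at E13.5 that carried an Oct4-GFP transgenic allele and a Rosa26 allele, on a CBA/CaJ and C57BL/6J background, by crosses to 129Sv/Jae females. Pre-iPSCs are stable clones halted at an intermediate stage after retroviral delivery of the Yamanaka factors to such MEFs, and iPSCs are the induced pluripotent stem cells that correspond to these clones. Both were grown with LIF on MEF feeder layers, so their libraries can hold some feeder chromatin and RNA, and which clone gave which library was not known here. H3, H3K4me3, H3K27me3 and RNA were measured in 2 samples of each cell type and H3K9me3 in 1. MEF nuclei were digested with another amount of MNase and for another time than those of pre-iPSCs and iPSCs, so digestion and cell type cannot be told apart in any difference from MEFs.

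In chromatin, 147 bp of DNA wrap around a histone octamer, and linker DNA joins 1 nucleosome to the next. A nucleosome is well positioned when most cells place it over the same bases, and fuzzy when cells place it differently. DNA sequence, bound proteins such as the insulator factor CTCF, and remodelling enzymes are known to set positions. Runs of A or T bend poorly around histones and are common in linkers, whereas micrococcal nuclease (MNase), which releases the nucleosomes, is known to cut A/T-rich DNA more readily.

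The sequences below show chosen examples from the group. The first lines give 2 nucleosomes that met the limits in all 6 H3 libraries, and the following pair had no call of at least 2 reads within 73 bp in any pre-iPSC or iPSC library. Each is the 147 bp of the MEF replicate 1 call in build mm9, forward strand, with no part in capitals.
chr10:21862445-21862591, intergenic, kept: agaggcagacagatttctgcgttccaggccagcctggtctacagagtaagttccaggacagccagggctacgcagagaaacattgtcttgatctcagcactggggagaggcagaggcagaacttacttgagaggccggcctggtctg
chr9:115060615-115060761, intron of Osbpl10, kept: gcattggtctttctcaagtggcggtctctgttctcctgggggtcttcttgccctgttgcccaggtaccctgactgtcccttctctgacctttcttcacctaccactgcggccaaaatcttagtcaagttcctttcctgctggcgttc
chr5:14971524-14971670, intergenic, not kept: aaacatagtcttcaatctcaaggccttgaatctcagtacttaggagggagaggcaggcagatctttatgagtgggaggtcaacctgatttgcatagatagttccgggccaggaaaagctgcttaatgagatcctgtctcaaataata
chr8:19946524-19946670, intron of Gm15319, not kept: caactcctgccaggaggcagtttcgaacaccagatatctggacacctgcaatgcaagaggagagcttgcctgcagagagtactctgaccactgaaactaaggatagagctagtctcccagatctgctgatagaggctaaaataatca

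A CTCF core motif was more frequent near these nucleosomes than near other calls, so 3 nucleosomes beside it are shown. Each runs from the nucleosome through the motif, read in the direction of the motif, which is in capitals. The first lies on the forward strand in an intron of Pcbp3, the second on the reverse strand and the third on the forward strand, both in intergenic DNA.
chr10:76298392-76298629: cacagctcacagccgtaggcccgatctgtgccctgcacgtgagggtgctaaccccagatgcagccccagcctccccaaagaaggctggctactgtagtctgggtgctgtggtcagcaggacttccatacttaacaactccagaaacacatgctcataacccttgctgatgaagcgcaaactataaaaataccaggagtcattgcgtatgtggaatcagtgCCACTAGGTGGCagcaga
chr1:195529454-195529666: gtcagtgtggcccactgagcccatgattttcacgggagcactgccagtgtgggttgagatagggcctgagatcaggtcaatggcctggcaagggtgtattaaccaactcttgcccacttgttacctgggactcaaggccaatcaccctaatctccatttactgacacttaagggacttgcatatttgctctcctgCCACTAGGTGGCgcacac
chr4:151999046-151999276: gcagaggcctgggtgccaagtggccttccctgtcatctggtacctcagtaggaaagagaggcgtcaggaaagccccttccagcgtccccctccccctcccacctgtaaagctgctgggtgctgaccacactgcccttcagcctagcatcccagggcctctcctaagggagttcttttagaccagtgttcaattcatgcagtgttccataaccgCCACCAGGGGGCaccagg

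A pair of nucleosomes flanked by A or T runs is shown because runs at both edges were more frequent here than around other calls. Capitals mark runs of at least 6 A or at least 6 T between 60 and 110 bp from the dyad, on the forward strand, with the dyad in the middle of the 221 bp. The first lies in an intron of Csmd2 by GENCODE and the second in an intron of Tbc1d14.
chr4:128099417-128099637: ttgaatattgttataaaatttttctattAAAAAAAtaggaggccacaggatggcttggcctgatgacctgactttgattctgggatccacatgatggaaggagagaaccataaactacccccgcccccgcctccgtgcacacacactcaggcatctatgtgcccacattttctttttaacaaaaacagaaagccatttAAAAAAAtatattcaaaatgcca
chr5:36898628-36898848: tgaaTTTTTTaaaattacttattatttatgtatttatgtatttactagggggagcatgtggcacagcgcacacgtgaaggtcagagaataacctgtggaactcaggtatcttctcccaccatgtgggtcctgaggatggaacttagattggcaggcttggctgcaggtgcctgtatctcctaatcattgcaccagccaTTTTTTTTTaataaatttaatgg

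The last sequence is the majority base at each position over 89 members that hold the 14-base word with the largest difference in share from sampled broad calls, which is in capitals.
Majority sequence: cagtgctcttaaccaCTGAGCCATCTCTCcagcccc

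The 6 H3 libraries held between 67362753 and 108211815 reads in calls, and those of the 3 marks between 12007350 and 15222040. Pre-iPSC replicate 1 stood apart from the other H3 libraries. It had 6329108 calls of at least 2 reads, against 8985330 to 9834672 in the others, and 8.64% of its calls had over 50 reads, against at most 0.216%. The median fuzziness of its calls of at least 10 reads was 31.9 bp, against 35.3 to 35.7 bp, and 18.3% of those calls lay within the limits, against 5.22% to 6.29%. Values are therefore given for each library, and the differences between iPSCs and pre-iPSCs in kept positions, kept limits and fuzziness also without it. The RNA fitted the labels, in that all 20 listed fibroblast genes were at 1 FPKM or more in MEFs and all 20 pluripotency genes in iPSCs. Of the pluripotency genes 2 reached that level in each MEF sample, and 12 and 11 did in pre-iPSCs. Summed fibroblast FPKM was 18443 and 29882 for MEFs, 1753 and 1655 for pre-iPSCs, and 637 and 940 for iPSCs, with all 20 genes still at 1 FPKM or more in every sample. In bulk samples fewer cells of a type and less RNA per cell cannot be told apart. Of other cell types, 1 of 5 epithelial genes, 3 of 4 measured macrophage genes and 1 or 2 of 5 endothelial genes reached 1 FPKM in MEFs, and their part in the results was not tested.

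Most well-positioned nucleosomes of MEFs rested on few reads. The read count ranged from 10 to 425 in MEF replicate 1, with a median of 11, and from 10 to 403 in MEF replicate 2, with a median of 12. The lower of both counts was exactly 10 for 2136 nucleosomes and at least 30 for 117. Median fuzziness was 21.6 bp in each MEF library, and the dyads of both libraries were a median of 6 bp apart. They were at most 5 bp apart for 2442 nucleosomes (49.6%) and at the same base for 237. The limits cut through a continuous spread. Members with 10 reads were kept in the other cell types, in the sense defined below, in a mean of 52.2% of cases (n = 2136), and places with 9 reads in 48.2% (n = 3475). For fuzziness of 24 to 25 bp and just over 25 bp the means were 51.4% and 50.1%. For fuzziness of 10 to 11 bp and just under 10 bp they were 76.8% and 70.6%, and for dyads 14 to 15 bp and 16 to 17 bp apart 46.1% and 44.7%.

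Few sharp calls were shared between both MEF libraries. Of the calls within the limits, 130759 in MEF replicate 1 and 223193 in MEF replicate 2, the well-positioned nucleosomes were 3.76% and 2.21%. A sharp call of MEF replicate 1 alone met every limit in pre-iPSC replicates 1 and 2 for 5.31% and 2.02% of cases, and in iPSC replicates 1 and 2 for 3.26% and 2.21%. Its position alone was found in MEF replicate 2 for 38.6%, in pre-iPSCs for 28.4% and 35.7%, and in iPSCs for 34.9% and 35.7%. For sharp calls of MEF replicate 2 alone the position was found in MEF replicate 1 for 36.6%, in pre-iPSCs for 31.7% and 34.9%, and in iPSCs for 35.7% and 34.8%. The position of a sharp call thus recurred more often in the other MEF library than in each library of the other cell types. The share was lowest in pre-iPSC replicate 1, and in the other 3 it was within 4 percentage points of the MEF share. The MEF libraries also held the most calls of at least 2 reads (9480702 and 9834672), and the part of this was not tested. With every limit the order did not hold. Sharp calls of MEF replicate 2 alone met every limit in MEF replicate 1 for 2.21%. In pre-iPSCs this was 6.47% and 1.77%, and in iPSCs 3.29% and 1.89%. For those of MEF replicate 1 alone, the 5.31% of pre-iPSC replicate 1 was above the 3.76% of MEF replicate 2.

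The first question was whether MEF positions are kept in reprogrammed cells. A position counted as kept when a call of at least 2 reads had its dyad within 15 bp. In pre-iPSC replicates 1 and 2, 2588 (52.6%) and 2879 (58.5%) of the 4923 positions were kept. In iPSC replicates 1 and 2 the numbers were 2859 (58.1%) and 2822 (57.3%). The means were 55.5% ± 4.18 (SD, n = 2) in pre-iPSCs and 57.7% ± 0.531 (SD, n = 2) in iPSCs. The difference of 2.17 percentage points was smaller than the spread between the pre-iPSC samples (exact two-sided permutation test, p = 1, adjusted p = 1 over 9 tests), and without pre-iPSC replicate 1 it was -0.782. With 2 samples against 2 this test cannot go below 0.333.

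Other MEF calls were found again less often. Broad calls, the 1991457 calls of MEF replicate 1 with at least 10 reads and a fuzziness over 25 bp, were kept in 19.8% and 24.7% of cases in pre-iPSCs and in 24.6% and 24.9% for iPSCs. Because well-positioned nucleosomes had to be found in both MEF libraries, a closer comparison is with 298238 broad calls that also had a broad call of MEF replicate 2 within 15 bp. These were kept in 30.4% and 33.0% for pre-iPSCs and in 33.9% and 33.4% for iPSCs. In each of the 4 libraries the sharp nucleosomes were kept more often than both kinds of broad call, as the plot of kept shares shows. Both kinds differ from the sharp ones in fuzziness, which the rule used. A dyad set from widely spread reads is less exact, so a window of 15 bp can miss a broad call that did not move. In MEF replicate 2 as well, 26.4% of broad calls were found again, against 38.6% of sharp calls of MEF replicate 1. Stability and precision of the dyad cannot be told apart here. The share of well-positioned nucleosomes with no call of at least 2 reads within 73 bp was 11.2% in pre-iPSC replicate 2. It was 10.9% and 11.2% in iPSC replicates 1 and 2, and 25.9% in pre-iPSC replicate 1, the library with fewer such calls.

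**Figure D1:**
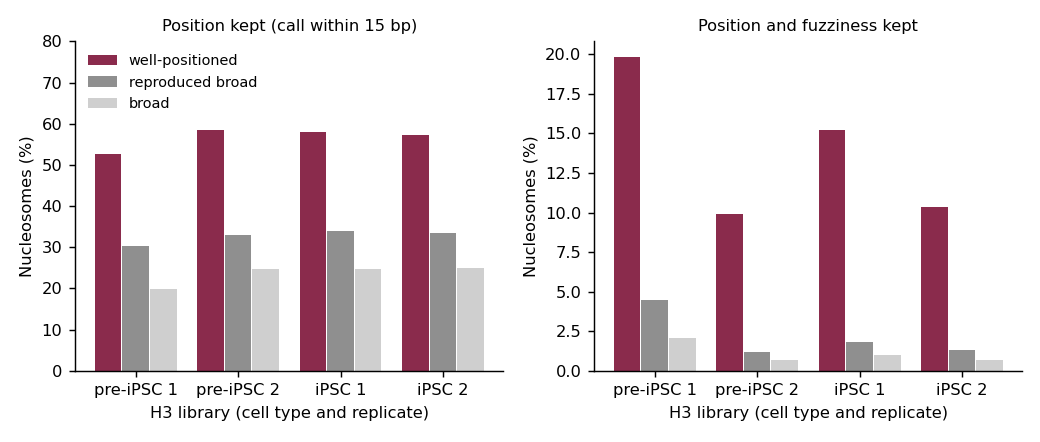
Percent of well-positioned nucleosomes, reproduced broad calls and broad calls of MEFs (bars, from 0) whose position was kept within 15 bp (left) or whose position, read minimum and fuzziness limits were all kept (right), in each of the 4 H3 libraries of pre-iPSCs and iPSCs. Well-positioned nucleosomes were kept in 52.6% to 58.5%, against 30.4% to 33.9% of reproduced broad calls, and with every limit in 9.89% to 19.8%.

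Each of the 4 libraries kept 52.6% to 58.5% of positions, so any 2 of them had to share some. A position was kept in all 4 libraries for 932 nucleosomes (18.9%), in 3 for 1290, in 2 for 1296, in 1 for 958 and in none for 447 (9.08%). Both pre-iPSC libraries shared 34.9% of positions and both iPSC libraries 38.3%, while pairs of 1 pre-iPSC and 1 iPSC library shared 33.7% to 38.0%. A position was kept in both pre-iPSC and neither iPSC library for 200 nucleosomes (4.06%), and in both iPSC and neither pre-iPSC library for 247 (5.02%). Such counts were not made for other calls, so none is read as particular to a cell type or to these nucleosomes. Of all members, 16 had no call of at least 2 reads within 73 bp in any of the 4 libraries.

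Position, read minimum and fuzziness limits together were met by fewer nucleosomes, as they must be, since the full set of limits includes the position. A call of at least 10 reads with a fuzziness of 10 to 25 bp lay within 15 bp for 976 (19.8%) and 487 (9.89%) members in pre-iPSC replicates 1 and 2, and for 750 (15.2%) and 511 (10.4%) in iPSC replicates 1 and 2. The means were 14.9% ± 7.02 and 12.8% ± 3.43 (SD, n = 2 each), a difference of -2.05 percentage points (exact two-sided permutation test, p = 1). Without pre-iPSC replicate 1 the direction turned, with 9.89% for pre-iPSCs below the iPSC mean. For reproduced broad calls the shares were 4.48% and 1.17% for pre-iPSCs and 1.85% and 1.29% for iPSCs. Kept calls had a median of 23, 10, 13 and 10 reads in these libraries, so that the minimum of 10 reads took more of them away in some libraries than in others, and libraries with more reads in calls had the higher shares. With a minimum of 2 reads the means were 22.6% for pre-iPSCs and 19.9% for iPSCs. All limits held in all 6 H3 libraries for 50 nucleosomes, of which 15 lay on chromosomes X and Y and 14 in places of dense reads, described further on.

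Calls at kept positions were sharper than those at kept broad calls, but mostly less sharp than in MEFs. Median fuzziness was 21.5 bp and 28.7 bp in pre-iPSC replicates 1 and 2, and 27.2 bp and 28.6 bp for iPSCs. At kept broad calls it was 28.6 and 33.9 bp, and 34.0 bp in both iPSC libraries. Broad calls were chosen for a fuzziness over 25 bp in MEFs, so this contrast is a description only. Pre-iPSC replicate 1 had the lowest value at both kinds of place, and lower fuzziness throughout, so its value near the MEF one is not particular to these nucleosomes. The iPSC mean of 27.9 bp ± 0.993 and the pre-iPSC mean of 25.1 bp ± 5.13 (SD, n = 2 each) differed by less than the spread of the pre-iPSC samples (exact two-sided permutation test, p = 1). This direction also turned without pre-iPSC replicate 1, with 28.7 bp for pre-iPSCs above the iPSC mean. Low fuzziness in MEFs chose the members, so no test against MEFs was made. Sharp calls of MEF replicate 1 alone had a median fuzziness of 31.6 bp where found in the second MEF library, 25.8 and 31.8 bp where found in pre-iPSC libraries and 31.5 and 31.8 bp in iPSC libraries. For sharp calls of MEF replicate 2 alone the medians were 30.8 bp in the other MEF library, 26.7 and 31.7 bp in pre-iPSC libraries and 31.7 and 31.9 bp in iPSC libraries. Fuzziness outside the selecting library was thus also higher within MEFs.

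**Figure D2:**
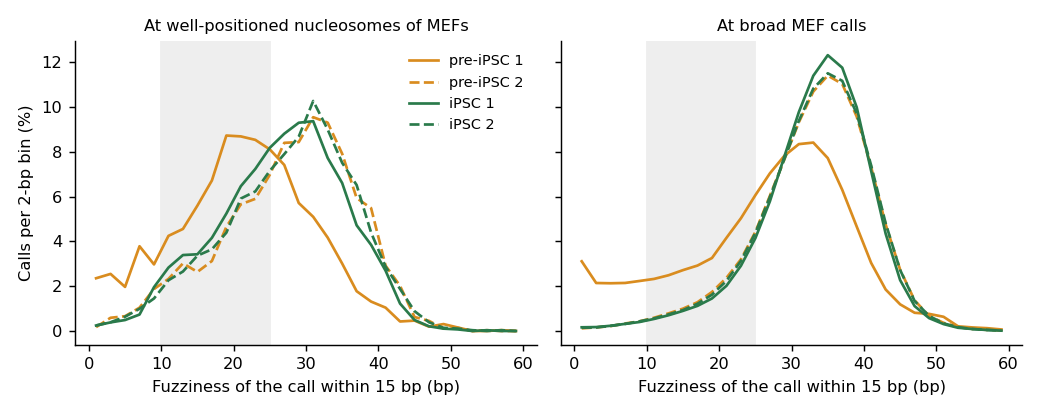
Distribution of fuzziness in bp of the calls within 15 bp of a well-positioned nucleosome (left) and of a broad MEF call (right), as percent of calls per 2-bp bin in each pre-iPSC and iPSC library, with the limits of 10 to 25 bp shaded. The curve of pre-iPSC replicate 1 lies to the left of the others in both panels, and the other 3 libraries have medians of 27.2 to 28.7 bp on the left and 33.9 to 34.0 bp on the right.

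The examples shown as kept or not kept come from the ends of the range. They are from the 50 members that met all limits in all 6 libraries and the 16 with no call within 73 bp in the other 4. They were chosen for high read counts, against median MEF counts of 11 and 12, so they are not typical members. The intergenic nucleosome at chr10:21862445-21862591, whose nearest RefSeq gene is Raet1a at 15.9 kb, had 83 and 91 reads for MEFs, 201 and 78 for pre-iPSCs and 121 and 81 for iPSCs. Its fuzziness was 15.0 and 12.4 bp, 16.0 and 19.5 bp, and 18.1 and 15.9 bp, and its dyad moved by at most 4 bp. The nucleosome in Osbpl10, a gene for an oxysterol-binding protein, had 60 and 62 reads for MEFs, 187 and 70 for pre-iPSCs and 98 and 63 for iPSCs, with fuzziness from 12.1 to 17.1 bp in all 6 libraries. At the first place both iPSC values were above both MEF values, and at the second the ranges of MEFs and iPSCs overlapped. A second pair of the same kind, at chr15:74917071-74917217 and in Sfi1 at chr11:3047236-3047382, lay in places of dense reads.

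In 3 of the 4 libraries most nucleosomes without a call within 15 bp had one within 73 bp. A call lay 16 to 73 bp away for 16.7% (16 to 30 bp) and 14.2% (31 to 73 bp) of members in iPSC replicate 1, and the nearest was over 73 bp away for 10.9%. In pre-iPSC replicate 1 these shares were 12.1%, 9.36% and 25.9%, so there the farther calls were the larger part. For reproduced broad calls the same shares were 17.1%, 30.6% and 18.4% in iPSC replicate 1. A nearby call is therefore not particular to well-positioned nucleosomes. The sequences shown as not kept come from the 16 nucleosomes with no call of at least 2 reads within 73 bp in any of the 4 libraries. At chr5:14971524-14971670 MEFs had 21 and 30 reads with fuzziness of 18.0 and 15.7 bp. The nearest calls lay 117, 114 and 110 bp away in pre-iPSC replicate 2 and the iPSC libraries, with 23, 32 and 21 reads, and 367 bp away in pre-iPSC replicate 1 with 5 reads. At chr8:19946524-19946670 MEFs had 28 and 39 reads, and the nearest calls lay 95 and 99 bp away in pre-iPSCs, with 78 and 18 reads, and 89 and 93 bp away in iPSCs, with 73 and 23 reads. The other examples, at chr11:3028765-3028911 in a place of dense reads and at chr4:146859463-146859609, had nearest calls 86 to 92 bp and 85 to 182 bp away. The rule for these examples fixed a distance over 73 bp, and at each place the nearest call was at most 117 bp from the old dyad in at least 3 of the 4 libraries.

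Well-positioned nucleosomes were rarely at starts of genes. The start window, which began 300 bp before a RefSeq start and ended 600 bp past it, held 11 of them (0.223%, 95% Clopper-Pearson interval 0.112% to 0.399%), the rest of gene bodies 1688 (34.3%) and intergenic DNA 3224 (65.5%). Of all MEF replicate 1 calls of at least 10 reads 0.287% were at starts, 37.8% in bodies and 61.9% intergenic, so location differed little from that of other calls. The share at starts was 0.323% for sharp calls of MEF replicate 1 alone and 0.387% for those of MEF replicate 2 alone, both above 0.287%, so no direction at starts is read from the 11. This interval and those below cover counting error only. By the GENCODE annotation 38.7% were in introns, 1.28% in coding exons, 1.22% in UTRs, 0.995% in noncoding exons and 57.8% intergenic, against 40.7%, 1.44%, 1.17%, 0.693% and 56.0% of broad calls.

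The density of well-positioned nucleosomes was lower in bodies of highly expressed genes. Per 1000 MEF calls of at least 10 reads there were 1.57 members in genes above 10 FPKM in MEFs, 2.11 in genes above 1 to 10 FPKM, 2.28 in genes above 0 to 1 FPKM and 2.25 in genes listed at 0. Intergenic DNA had 2.45 per 1000 calls. Median gene length was 17.7 kb in the highest class and 5.25 kb in genes listed at 0 (no test was made, since genes are not replicates).

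Kept shares were alike in bodies and intergenic DNA. In gene bodies 54.1% and 56.6% of positions were kept in pre-iPSCs and 57.1% and 56.6% for iPSCs, and in intergenic DNA 51.8% and 59.4%, and 58.6% and 57.7%. At starts 5 and 7 of 11 were kept in pre-iPSCs and 6 and 6 for iPSCs. No location therefore stood out beyond the spread of the libraries.

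Chromosomes X and Y held more well-positioned nucleosomes for their calls of at least 10 reads, but they had few such calls. Chromosome 19, for instance, had 137 nucleosomes of 51927 such calls, more of both than X. The autosomes had 2.26 per 1000 calls of at least 10 reads, with chromosomes between 1.87 and 2.73, while X had 6.98 (103 nucleosomes of 14755 calls) and Y had 110 (48 of 436 calls). On X, 50.5% and 73.8% of positions were kept in pre-iPSCs and 73.8% and 78.6% for iPSCs, and on Y 75% and 87.5%, and 81.2% and 87.5%. All limits were kept on X in 12.6% and 43.7% for pre-iPSCs and 45.6% and 43.7% for iPSCs. Pre-iPSC replicate 1 was the lowest library on both chromosomes. In MEF replicates 1 and 2 the median reads of members were 20 and 23 on X and 30 and 28 on Y. On autosomes they were 11 and 12. Median MEF fuzziness was 15.1 to 18.4 bp on X and Y, against 21.7 bp on autosomes. Members of at least 20 reads in both MEF libraries, on any chromosome, were kept in 79.3% for pre-iPSCs and 86.3% for iPSCs. The part of read count in the shares on X and Y was not tested.

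Places of dense reads, where the 10 kb around the dyad held over 948 H3 reads of MEF replicate 1 (3 times the median of 316), held 81 members, 20 of them on Y and 13 on X. They were kept in 61.7% and 88.9% for pre-iPSCs and in 79.0% and 91.4% for iPSCs. Of the 117 members with at least 30 reads in both MEF libraries 51 were in such places. Repeated sequence that the genome build lacks can give dense reads, and its part here was not tested. Without these places and without X and Y the kept shares were 52.3% and 57.6% for pre-iPSCs and 57.3% and 56.2% for iPSCs, each within 2 percentage points of the share of all members.

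The sequence under and beside the nucleosomes had a profile that the rule did not use. Steps of adjacent A or T bases made up 21.5% of steps within 60 bp of the dyad, against 25.7% for broad calls. At 75 to 100 bp, just outside the nucleosome, they made up 43.5% against 33.7%, and at 150 to 250 bp 29.9% against 31.1%. Mean GC content of the 147 bp was 48.6% against 45.8%. Well-positioned nucleosomes thus had a core poorer in A/T steps than its surroundings and edges richer in them, a contrast that broad calls showed more weakly.

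**Figure D3:**
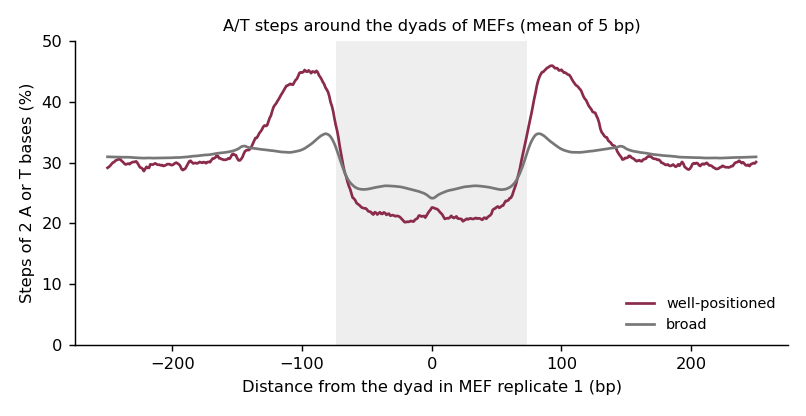
Percent of steps of adjacent A or T bases by distance in bp from the MEF replicate 1 dyad (running mean of 5 bp) for well-positioned nucleosomes and broad calls, with the 147 bp of the nucleosome shaded. Well-positioned nucleosomes have 21.5% of A/T steps within 60 bp of the dyad and 43.5% at 75 to 100 bp, against 25.7% and 33.7% for broad calls.

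A run of at least 6 A or 6 T between 60 and 110 bp from the dyad was present on at least 1 side of 1239 nucleosomes (25.2%), against 10.7% of broad calls, and on both sides of 91 (1.85%) against 0.345%. Those with runs on both sides were kept in 68.1% and 78.02% for pre-iPSCs and in 76.9% and 75.8% for iPSCs. Those with no run were kept in 51.2% and 56.2%, and in 56.7% and 54.5%. Each of the 4 libraries kept more of the nucleosomes with a run on both sides. The one shown in Tbc1d14 had dyads within 9 bp in all 6 libraries, with 10 and 14 reads for MEFs, 22 and 6 for pre-iPSCs and 12 and 11 for iPSCs. The one in Csmd2 had fuzziness of 16.0 and 24.8 bp for MEFs, 17.8 and 31.6 bp for pre-iPSCs, and 13.8 and 24.5 bp for iPSCs. MNase cuts A/T-rich DNA readily in every library, and the part of its cutting in these edges was not tested.

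The CTCF core motif lay near far more of these nucleosomes than near other calls. The motif of 12 positions was searched on both strands as exact matches, and it was within 250 bp of the dyad of 123 nucleosomes (2.50%, 95% Clopper-Pearson interval 2.08% to 2.97%). It was near 0.211% of broad calls and 0.239% of all calls of at least 10 reads, and it was present in 0.248% of all genome windows of the same width. The gap to broad calls depended on the window, with 0.203% against 0.0677% within 100 bp and 3.66% against 0.435% within 500 bp. CTCF is a zinc finger protein that binds insulators and loop anchors and is known to be flanked by ordered nucleosomes. A match is a stretch of letters and not a measured binding site.

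The nucleosomes stood at set distances from the motif. Along the direction of the motif 88 dyads were upstream and 35 downstream, of which 85 lay 100 to 200 bp upstream with a median of -145.5 bp and 21 lay 100 to 200 bp downstream with a median of 141.5 bp. Within 50 bp of the motif there were 7. Each strand was searched in the same way, so the surplus on 1 side belongs to the direction of the motif and not to that of the genome. In the 3 shown sequences the dyad is at -152.5, -127.5 and -145.5 bp. Of the 123, 70 were intergenic, 52 in gene bodies and 1 at a start, and none lay in a place of dense reads.

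Positions of nucleosomes beside the motif were kept more often than those of the others in each library, by the least in iPSC replicate 2. The gap there was smaller than the spread between both iPSC libraries. The shares were 69.9% and 73.2% for pre-iPSCs and 76.4% and 60.98% for iPSCs, against 52.1% and 58.1%, and 57.6% and 57.2%, for the 4800 without it. All 4 libraries kept 42 of 123 (34.1%) against 890 of 4800 (18.5%), and no library kept 6 (4.88%) against 441 (9.19%). All limits were kept in 39.0% and 9.76% for pre-iPSCs and in 41.5% and 15.4% for iPSCs, against 19.3% and 9.90%, and 14.6% and 10.3%, without the motif, so that pre-iPSC replicate 2 showed no higher share. Beside the motif the median read counts of the kept calls were 44.5, 8, 17.5 and 10 in these libraries. The libraries that kept all limits most often, replicate 1 of both cell types, were those with the most reads at these places. In the example in Pcbp3, a gene for a poly(C)-binding protein, reads were 12 and 18 for MEFs, 105 and 15 for pre-iPSCs and 36 and 12 for iPSCs, while fuzziness stayed between 16.7 and 21.4 bp and the dyad within 11 bp. At chr1:195529454-195529666 fuzziness was 17.3 and 23.2 bp for MEFs, 19.6 and 22.2 bp for pre-iPSCs, and 21.3 and 24.9 bp for iPSCs. Both places met all limits in all 6 libraries, and they were the only 2 of the 123 that did. At the third, chr4:151999046-151999276, reads were 14 and 17 for MEFs, 102 and 9 for pre-iPSCs and 44 and 16 for iPSCs, and fuzziness was 19.3 and 22.9 bp, 21.4 and 7.85 bp, and 20.4 and 23.1 bp, so pre-iPSC replicate 2 missed both limits there.

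**Figure D4:**
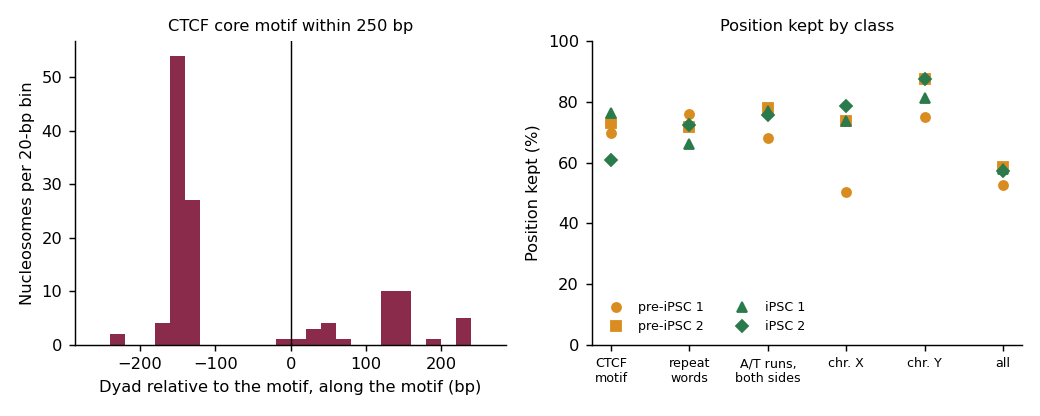
Left, number of well-positioned nucleosomes per 20-bp bin by distance in bp of the dyad from the CTCF core motif, along the direction of the motif. Right, percent of positions kept in each of the 4 pre-iPSC and iPSC libraries (points) for nucleosomes with the motif, with a repeat word, with A/T runs on both sides, on X, on Y, and for all. The main peak is upstream of the motif with a median of -145.5 bp, and all classes lie above all members in every library except X in pre-iPSC replicate 1 (50.5% against 52.6%).

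Repeated words formed a further class. The 10 words of 14 bases within 150 bp of the dyads with the largest difference in share from sampled broad calls were chosen after the values were seen, so they serve as a description. At least 1 of them was near 242 nucleosomes (4.92%) against 0.833% of broad calls. The first, CTGAGCCATCTCTC, was present in 89 nucleosomes (1.81%) and in 24 of 4930 sampled broad calls (0.487%). It is first by difference and not by ratio, since AGGTCCTGAGTTCA was present in 64 nucleosomes (1.30%) and in 4 sampled broad calls (0.0811%). Over these 89 the majority base of the 36 positions shown above was carried by a median of 82.0% of members and by at least 52.8%. The 14 positions of the word match in all 89 by the alignment, and the stretch was ended where the share fell below 50%. Both values therefore partly follow from how the stretch was made. The words resemble the short interspersed repeat B2 of the mouse, from general knowledge, since no repeat annotation was used here. The dyads were spread unevenly about the word, with 4 of 89 at 101 to 150 bp before it, 40 at 51 to 100 bp before it and 25 at 1 to 50 bp before it. After it there were 0 at 0 to 49 bp, 2 at 50 to 99 bp and 18 at 100 to 149 bp. Positions near a word were kept in 76.0% and 71.9% for pre-iPSCs and in 66.1% and 72.3% for iPSCs. Only uniquely aligned reads were used, so copies too alike to be told apart are under-represented, and the effect of this on the class was not tested.

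Neighbouring calls around the well-positioned nucleosomes had a first peak at a similar distance in all 3 cell types. In MEFs the density of neighbouring calls peaked 185 bp from the dyad, fell to a trough at 285 to 295 bp and rose again at 375 bp. The peak was 2.67 and 2.89 times the trough in MEF replicates 1 and 2. Similar distances were found in the other cells, with the first peak at 185 to 195 bp, the trough at 275 to 305 bp and the second peak at 365 to 375 bp, and with ratios of 1.83 and 1.84 for pre-iPSCs and 1.71 and 1.72 for iPSCs. Around broad calls the ratio was 1.36 in MEF replicate 2, 1.23 in both pre-iPSC libraries, and 1.24 and 1.21 for iPSCs. Calls of 1 library do not overlap, and the MEF libraries supplied the dyads, so the MEF ratios around these nucleosomes, and the 2.07 of MEF replicate 1 around broad calls, hold this spacing as well. The same holds in part for the 4 other libraries, since any library with a call at the dyad has a gap beside it, and they had a call within 15 bp at 52.6% to 58.5% of well-positioned nucleosomes but at 19.8% to 24.9% of broad calls. Their higher ratios around well-positioned nucleosomes therefore cannot be told apart from the kept positions. Nucleosomes beside the CTCF motif had ratios of 2.75 and 3.82 for MEFs, 3 and 2.90 for pre-iPSCs and 4.33 and 2.05 for iPSCs, a wide spread with only 123 places.

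**Figure D5:**
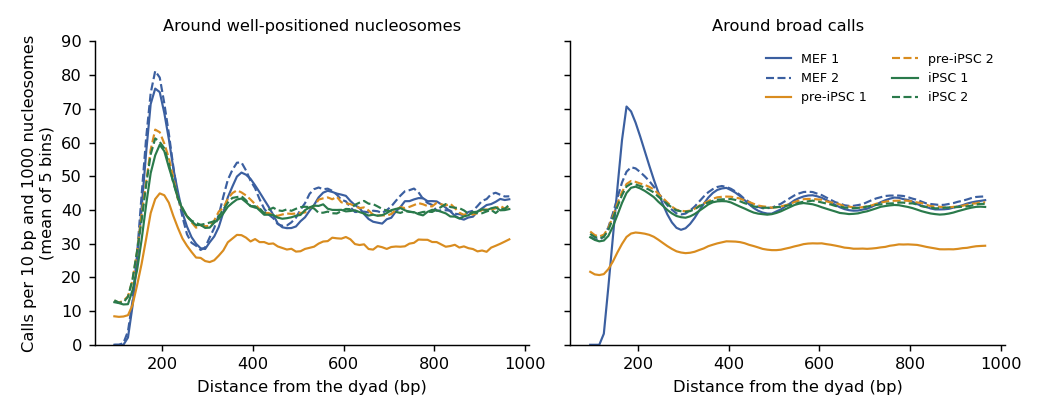
Calls of at least 2 reads per 10 bp and 1000 places (running mean of 5 bins) by distance in bp from the dyads of well-positioned nucleosomes (left) and of broad calls (right), 1 line per H3 library. The first peak lies at 185 to 195 bp on the left, where the MEF libraries, which supplied the dyads, have ratios of peak to trough of 2.67 and 2.89, and pre-iPSC replicate 1, which has fewer calls, runs below the other libraries from the first peak outward.

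Reads of the histone marks were counted on the nucleosomes from calls with a dyad within 73 bp, per 1000000 reads in calls and 1000 nucleosomes. H3K4me3 marks active and poised promoters, H3K27me3 Polycomb-repressed genes and H3K9me3 heterochromatin. H3K4me3 gave 136 and 140 for MEFs, 138 and 130 for pre-iPSCs and 144 and 144 for iPSCs, and was 1.49 to 1.69 times the level on broad calls. H3K27me3 gave 127 and 139, 135 and 137, and 130 and 128, or 1.34 to 1.41 times the level on broad calls. H3 itself was at 1.88 and 1.44 times in pre-iPSC replicates 1 and 2 and at 1.43 times in both iPSC libraries. The surplus of all antibodies fell without the places of dense reads, to 1.32 to 1.41 for H3K4me3 and 1.24 to 1.33 for H3K27me3. These places were left out of the members only and not of the broad calls, so the fall is not like for like.

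With 2 samples of each cell type the tests of the marks could not pass the threshold. H3K4me3 was 5.89 higher in iPSCs than in MEFs (exact two-sided permutation test, p = 0.333, adjusted p = 1), 9.97 higher in iPSCs than in pre-iPSCs (p = 0.333 by the same permutation test) and it differed by -4.08 for pre-iPSCs from MEFs (permutation p = 0.667), or by 10.0 without dense places. Without dense places the first difference was 17.1, and without pre-iPSC replicate 2 those with pre-iPSCs were 6.00 and -0.116. With mark calls within 30 bp of the dyad the iPSC difference from MEFs changed sign, to -2.19. H3K27me3 differed by -7.15 for iPSCs from pre-iPSCs (permutation p = 0.333), by -4.22 for iPSCs from MEFs and by 2.93 for pre-iPSCs from MEFs (permutation p = 1 for both). Without MEF replicate 2 the iPSC difference from MEFs was 1.90, and without MEF replicate 1 the pre-iPSC difference from MEFs was -3.19. With mark calls within 30 bp the latter was -2.29. H3K9me3, with 1 sample of each cell type, gave 188 for MEFs, 141 for pre-iPSCs and 144 for iPSCs, and 136, 126 and 129 without dense places. The higher MEF value of H3K9me3 was therefore largely in dense places.

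Of the 20156 RefSeq genes with RNA values, 11 (0.0546%) had a well-positioned nucleosome in the start window. They are Abcg2, which encodes a drug efflux transporter, Casq2, a calcium store protein of heart muscle, Dner, a Notch ligand of neurons, Galnt9, an enzyme that starts O-glycosylation, Mgl2, a lectin of macrophages, Oas1d, an oocyte relative of the oligoadenylate synthetases, Scn3b, a sodium channel subunit, Srrm3, a splicing factor, and C130026I21Rik, Gm13154 and Gm7120. No gene had more than 1. Of the 11, 9 were below 2 FPKM in both MEF samples, Gm7120 was at 5.66 and 6.72 FPKM and Abcg2 at 34.5 and 33.2 FPKM.

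The nucleosomes at these starts behaved in different ways. At C130026I21Rik, 155 bp upstream of the start, the dyad stayed within 7 bp in pre-iPSCs and iPSCs and fuzziness was 13.0 and 22.4 bp for MEFs, 12.5 and 13.1 bp for pre-iPSCs and 13.2 and 12.4 bp for iPSCs. At Dner, 276 bp upstream, a call was within 15 bp in all 4 libraries, with fuzziness from 21.7 to 28.9 bp, while its RNA was at 0.652 and 1.24 FPKM for MEFs and at 0.119 FPKM or less in the others. At Srrm3, 49 bp upstream, all 4 libraries had a call within 12 bp. At Gm7120 the MEF nucleosome had 38 and 56 reads, and its position was found 4 and 3 bp away in replicate 2 of pre-iPSCs and iPSCs but 91 and 96 bp away in replicate 1 of each. At Oas1d and Scn3b no library had a call within 15 bp. These starts followed no common pattern.

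RNA of these genes was read against the whole table. Between pre-iPSCs and MEFs, 16.4% of 12401 tested genes were called by limma (7.39% higher and 9% lower in pre-iPSCs), as was 1 of the 6 tested start genes, Oas1d, which rose by 1.62 on the log2(FPKM + 1) scale (SE 0.281, adjusted p = 0.00946). Between iPSCs and pre-iPSCs it called 8.62% of genes (3.91% higher and 4.71% lower in iPSCs) and 3 of the 6. These were Gm13154, which rose by 3.71 (SE 0.360, limma adjusted p = 0.00197), Galnt9, which rose by 1.27 (SE 0.279, limma adjusted p = 0.0337), and Oas1d, which fell by 1.44 (SE 0.281, limma adjusted p = 0.0224). Between iPSCs and MEFs it called 25.9% of genes (10.3% higher and 15.5% lower in iPSCs) and 2 of the 6, Gm13154 with a rise of 3.404 (limma adjusted p = 0.00140) and Gm7120 with a fall of 1.59 on the same scale (limma adjusted p = 0.0194). Gm13154 was at 0.994 and 0.796 FPKM for MEFs, 0.516 and 0.536 for pre-iPSCs and 16.7 and 21.7 for iPSCs. Its upstream nucleosome was found 4 and 0 bp away in pre-iPSCs and 84 and 27 bp away in iPSCs. The rise of Gm13154 between MEFs and iPSCs was called with any 1 sample left out and with no filter on low FPKM, whereas the other calls were each lost without at least 1 sample. These 6 genes are too few to set against the background, and the comparisons share samples.

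Gene bodies held 1694 pairs of a gene and a well-positioned nucleosome in 1357 genes (6.73%). Of those genes 860 were tested, and 21.05% were called between pre-iPSCs and MEFs, 12.8% between iPSCs and pre-iPSCs and 26.5% between iPSCs and MEFs, beside the 16.4%, 8.62% and 25.9% of all genes. Of these 860, called genes rose in 102, 46 and 109 cases and fell in 79, 64 and 119. Of all 12401 tested genes 7.39%, 3.91% and 10.3% were higher and 9%, 4.71% and 15.5% lower. Between pre-iPSCs and MEFs rises were thus more frequent than falls in body genes, but not over all genes (916 rises and 1116 falls). In the other comparisons falls were more frequent in both sets. The tested body genes were longer, with a median of 80.003 kb against 21.2 kb, and the part of length in these shares was not tested. Their median change was 0.06, -0.10 and 0.00 on the log2 scale, beside -0.04, -0.09 and -0.14 for all tested genes.

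None of the gene lists held a nucleosome at the start of a gene, and a few genes held one in their bodies. None of 20 fibroblast genes, 20 pluripotency genes, 81 ribosomal protein genes, 39 Hox genes, 1094 olfactory receptor genes and 10 genes named by the study had one in the start window, which 11 of 20156 genes had overall. In their bodies 0 fibroblast, 0 ribosomal protein and 0 Hox genes held one, and 1 olfactory receptor gene did. Of the pluripotency genes 2 did, Esrrb, a nuclear receptor gene of the pluripotency network, with 3 nucleosomes, and Tcfcp2l1, a transcription factor gene of the same network, with 2. Of the genes of the study Tcfcp2l1 and Ddx4, which encodes an RNA helicase of germ cells, did. The ribosomal, Hox and olfactory receptor lists cover 0.274, 0.224 and 1.62 Mb of gene body, with 0, 0 and 0.616 nucleosomes per Mb, and the fibroblast list covers 0.812 Mb with 0. The pluripotency list had 5 nucleosomes in 0.351 Mb, or 14.2 per Mb, and the genes of the study 3 in 0.204 Mb, or 14.7 per Mb, against 1.86 per Mb over all genes. The higher densities rest on 3 genes, with Tcfcp2l1 in both lists.

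In Esrrb the 3 nucleosomes lay in introns, and the 1 farthest from the start was the most stable. At chr12:87791380-87791526, 89387 bp downstream, the dyad stayed within 5 bp in all libraries and fuzziness was 24.3 and 22.0 bp for MEFs, 16.2 and 31.8 bp for pre-iPSCs and 18.4 and 16.6 bp for iPSCs. At chr12:87715755-87715901 the dyad was within 15 bp in 3 of the 4 libraries, at 4, 0 and 6 bp, and 21 bp away in pre-iPSC replicate 2. At chr12:87709616-87709762 the nearest calls were 23 and 86 bp away in pre-iPSCs and 33 and 149 bp away in iPSCs. Esrrb RNA was 5.72 higher in iPSCs than in MEFs and 5.70 higher than in pre-iPSCs on the log2 scale (limma adjusted p = 0.000412 and 0.000488), so kept and lost positions occurred in the same gene while its RNA rose.

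In Tcfcp2l1 the intronic nucleosome at chr1:120534192-120534338 was 32 and 8 bp away in pre-iPSCs and 2 and 20 bp away in iPSCs. The other, in the UTR at chr1:120576898-120577044, was within 12 bp in all 4 libraries, with fuzziness of 24.7 and 19.8 bp for MEFs, 6.87 and 31.8 bp for pre-iPSCs and 21.9 and 33.8 bp for iPSCs. Tcfcp2l1 RNA was 1.40 higher in iPSCs than in pre-iPSCs and 2.46 higher than in MEFs on the log2 scale (limma adjusted p = 0.0465 and 0.00309). The Ddx4 nucleosome at chr13:113417295-113417441 was within 8 bp in pre-iPSC replicate 2 and 26, 47 and 23 bp away in the other 3 libraries. Ddx4 RNA was 2.62 higher in iPSCs than in pre-iPSCs and than in MEFs on the log2 scale (limma adjusted p = 0.00335 and 0.00170).

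The genes with the most well-positioned nucleosomes in their bodies, named after their values were seen, were C130026I21Rik, Gm13152 and Gm15319 with 7 each and Sfi1, Sp110 and Spag16 with 6 each. C130026I21Rik, Gm15319 and Sp110 are only 24.2, 25.5 and 26.99 kb long, whereas Spag16 covers 898 kb. The Sfi1 nucleosome at chr11:3047236-3047382 lay in a place of dense reads, while those at chr8:19946524-19946670 in Gm15319 and chr4:146859463-146859609 in Gm13152 did not. The part of repeated sequence in these counts was not tested. All 6 were below 1.5 FPKM in both MEF samples. Sp110 RNA was at 0.375 and 0.166 FPKM for MEFs, 3.93 and 9.86 for pre-iPSCs and 1.04 and 0.987 for iPSCs.

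The same limits were applied to the other cells. They gave 7943 nucleosomes in pre-iPSCs, a set that cannot be formed without pre-iPSC replicate 1, and 5491 for iPSCs. Of the 4923 MEF nucleosomes 162 (3.29%) were in the pre-iPSC set, which is 2.04% of that set, and 220 (4.47%) were in the iPSC set, which is 4.01% of it. In both sets there were 49 (0.995%). The share of other MEF calls in these sets was not counted, so the overlaps are read neither as loss nor as particular to a cell type. Between the MEF libraries themselves, only 3.76% and 2.21% of the sharp calls of replicates 1 and 2 met the rule.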

How the data were processed

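MNase ChIP-seq of H3 and 3 histone marks and RNA-seq of MEFs, pre-iPSCs and iPSCs were used. The authors aligned ChIP reads to mm9 (Bowtie 1.0.1, unique, at most 2 mismatches), capped duplicates, shifted reads by 73 bp and ran GeneTrack 1.0.3 to call nucleosomes. The deposited values are the read count of each call and its fuzziness score in bp. For RNA the authors deposited FPKM (TopHat2 2.0.4, Cuffdiff, with Cufflinks 2.0.2 in the submitters' processing notes). Depth is given as reads in calls.

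From these files dyads were matched between libraries to the nearest call of at least 2 reads. Starts and bodies are RefSeq genes of the RNA tables and exons are GENCODE M1. Sequence came from NCBIM37 (mm9), which was not soft-masked, so repeats were not left out of the shown places. Expression was tested with limma 3.58.1 (trend, Benjamini-Hochberg over all tested genes) on log2(FPKM + 1), leaving out genes whose mean was under 0.5 FPKM, with the table of the replicate as a term, and called at adjusted p below 0.05 and a 2-fold change. Other p-values are exact permutation tests over samples, adjusted over 9 tests. Labels say that samples are replicates but replicate numbers follow accession order, so they name samples and p-values measure the spread between these samples. Matching and limma were tested on simulated data.

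The members and lists were chosen with earlier results of these data known. Genes are named by membership of fixed lists, by the start window, or as the most populated bodies. Nucleosomes shown as kept or not kept are intergenic and intronic ones with the most reads among those meeting all limits in 6 libraries or having no call within 73 bp in the other 4, and sequences in places of dense reads were passed over after the data were seen. Those beside a motif or run, chosen outside dense places, had their position kept in every library, ranked by the libraries meeting all limits and then by the summed distance. Alternatives concerned limits, distances, windows, read minimums, filters and left-out samples. Reads outside calls were not used here. Computations used Python 3.11.15 (scipy 1.17.1, pandas 2.3.3, numpy 2.4.6, matplotlib 3.10.9) and R 4.3.3.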

Additional observations from a re-analysis of the deposited data

How the results depend on the processing

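The number of well-positioned nucleosomes depended strongly on the limits. It was 49312 with a minimum of 5 reads, 205 with 20 reads, 731 with a fuzziness of 10 to 20 bp, 28047 with 10 to 30 bp and 2442 with dyads within 5 bp, and with only 1 MEF library it ranged from 130759 to 223193. Position was kept in 28.7% of members in pre-iPSCs and 29.2% in iPSCs within 5 bp, in 69.3% and 73.9% within 30 bp, in 48.95% and 55.0% when calls needed 5 reads, and in 79.3% and 86.3% for members of at least 20 reads. In iPSCs it was 57.0% without X and Y. Position and fuzziness were kept in 22.6% in pre-iPSCs and 19.9% in iPSCs when calls needed 2 reads, in 9.67% and 4.76% when they needed 20 reads, and in 21.7% and 21.4% with fuzziness up to 30 bp. Median fuzziness in iPSCs was 29.9 bp for calls within 73 bp.

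The difference of iPSCs and pre-iPSCs in kept positions ranged from -0.782 to 5.13 percentage points with 1 sample left out, turning sign without pre-iPSC replicate 1. The share at starts was 0.345% with 500 bp either side, 0.934% with 1000 bp, and 0.488% for members of at least 20 reads. For sharp calls of 1 MEF library it was 0.387% without MEF replicate 1 and 0.323% without MEF replicate 2. The CTCF motif was near 0.203% within 100 bp (0.0677% of broad calls) and 3.66% within 500 bp (0.435%). For mark calls within 30 bp H3K4me3 was 2.19 lower in iPSCs than in MEFs (a difference of -2.19) and the H3K27me3 difference of pre-iPSCs and MEFs was -2.29. Without places of dense reads, an alternative chosen after the data were seen, the H3K4me3 difference of pre-iPSCs and MEFs was 10.0. With 1 sample left out the H3K27me3 difference of iPSCs and MEFs ranged from -10.3 to 1.90, the latter without MEF replicate 2, and that of pre-iPSCs and MEFs from -3.19, without MEF replicate 1, to 9.05. The cause was not tested for any of these.

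Called start genes in pre-iPSCs against MEFs, iPSCs against pre-iPSCs and iPSCs against MEFs were 0, 0 and 1 with no filter on low FPKM, where limma called 0, 170 and 549 genes of the whole table, and 3 in pre-iPSCs against MEFs with 500 bp either side of the start. With 1 sample left out they ranged from 0 to 4, 0 to 3 and 1 to 3, with 0 between pre-iPSCs and MEFs without pre-iPSC replicate 1, 4 without MEF replicate 2, and 0 between iPSCs and pre-iPSCs without iPSC replicate 2. A lone sample was taken to vary like the other groups. Without the replicate block (the table term) they were 1, 3 and 2, as with it, and limma called 1997, 1124 and 3004 genes in all. Of all alternatives computed, 99 values stayed the same by their spread or count, 38 moved and 6 changed sign. For kept shares and fuzziness, the same meant a shift below the SD of the 2 libraries. Leaving out 1 of the 2 libraries always gives a smaller shift, so those values could not move. With the wide SD of pre-iPSCs, a change from 14.9% to 21.7% in kept limits also counted as the same. The tally is therefore not a measure of robustness.

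With medians of 11 and 12 reads per member, fuzziness of a single nucleosome is imprecise, and a nucleosome that was not found again may have been missed at this depth. With 2 samples of a cell type the exact permutation test allows no p below 0.333 for a single value. This floor does not apply to the limma tests, which are fitted across genes.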
